A study of Homo sapiens with 6 samples.

Results

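Knockdown of RRM1 was set directly against knockdown of RRM2 in NCI-H929 cells, an established line from a human multiple myeloma. The comparison takes the 2 arrays whose titles say siRRM1 and the 2 whose titles say siRRM2, so 4 of the 6 arrays of the series, over all 22277 probe sets. In each group the cells had received small interfering RNA (siRNA) by electroporation, against RRM1, against RRM2 or, in the 2 remaining arrays, a non-targeting scramble sequence, and total RNA was taken 24 h later. All arrays thus share 1 cell line, the electroporation and the time, and each target is represented by a single siRNA treatment whose sequence was not used here. Nothing in the labels states that replicate arrays are separate cultures, so p-values measure only the spread between these samples, which may be technical.

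The products of RRM1 and RRM2 are the large and the small subunit, respectively, of ribonucleotide reductase, which reduces ribonucleotides to the deoxyribonucleotides that DNA polymerases use. The large subunit holds the catalytic site and the sites where nucleotides regulate the enzyme. The small subunit supplies the radical that the reaction needs, and its level rises in S phase. Cells short of deoxyribonucleotides slow their replication forks and can activate the checkpoint kinases and p53, a transcription factor whose targets stop the cell cycle, repair DNA or promote apoptosis. Myeloma is a cancer of plasma cells, the antibody-secreting end stage of the B lineage.

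Values are the deposited log2 signals, and a difference is the siRRM1 mean minus the siRRM2 mean, so that a difference of 1 is a 2-fold higher signal in siRRM1. Array medians lay between 6.11 and 6.16. The plasma cell markers TNFRSF17 (12.96 to 13.32), JCHAIN (13.20 to 13.39) and SDC1 (10.80 to 11.30) were bright on all 4 knockdown arrays, the lineage that the labels name. Across probe sets, siRRM1 replicate 1 correlated at 0.994 and 0.9949 with the siRRM2 arrays and at 0.9923 with siRRM1 replicate 2. SiRRM1 replicate 2 had the largest signal difference between the 3′ and 5′ ends of the ACTB control among the knockdown arrays (0.326, against 0.03 to 0.051 on the other three). These are RNA from whole cultures, in which fewer cells of a type and less RNA per cell cannot be told apart.

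Each target was lower under its own siRNA than under the other. RRM1 (probe set 201477_s_at) read 8.93 and 7.99 in the siRRM1 arrays, 11.11 and 11.38 in the siRRM2 arrays and 11.06 and 11.11 in scramble. The siRRM1 arrays therefore held 20.0% and 10.4% of the siRRM2 mean, and the groups did not overlap. The difference of -2.79 passed the test (standard error, SE, 0.27, limma adjusted p = 0.0425). The other RRM1 probe set, 201476_s_at, gave -2.76 and missed the threshold of 0.05 (adjusted p = 0.0631, and 0.00736 with the replicate block described below).

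RRM2 showed the reverse, with a lower signal in siRRM2. Its probe set 209773_s_at read 12.81 and 12.70 in siRRM1, 9.59 and 10.12 in siRRM2 and 12.51 and 12.59 in scramble, so that 11.1% and 16.0% of the siRRM1 mean was left in the siRRM2 arrays. It was 7.49-fold higher in siRRM1 (difference 2.91, SE 0.17, limma adjusted p = 0.00397). The brighter probe set 201890_at read 12.92 and 13.12 in siRRM1 and 10.54 and 11.44 in siRRM2, which left 17.9% and 33.5%. Its difference of 2.03 (SE 0.26) did not pass (limma adjusted p = 0.073, and 0.00506 with the block). The depth of the knockdowns thus varied within both groups, and its part in the other differences was not tested.

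Outside the targets, 3 genes separated the knockdowns past the threshold: GDF15 and PLK2 were higher in siRRM1 and LAMP2 was lower. With the targets, limma over the 6 arrays called 3 of 13329 probe sets higher in siRRM1 (0.0225% of those tested) and 2 lower (0.015%), all by at least 2-fold. At an unadjusted p under 0.05 there were 1150. With the 4 knockdown arrays alone, 4 probe sets passed (0.03%), RRM1 being the one lost (adjusted p = 0.0862), and 1087 had an unadjusted p under 0.05. With the replicate number entered as a block, 101 probe sets passed, 77 higher (0.578%) and 24 lower (0.18%), and the adjusted p from that limma fit is given beside a result where it changes the call.

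GDF15, a stress-induced cytokine of the TGF-beta family and a p53 target, had the largest difference of the 5. Its probe set 221577_x_at read 8.93 and 9.40 in siRRM1, 5.90 and 6.31 in siRRM2 and 4.86 and 4.67 in scramble. Both siRRM1 arrays stood above both siRRM2 arrays, which in turn stood above scramble. The signal was 8.32-fold higher in siRRM1 than in siRRM2 (difference 3.06, SE 0.19, limma adjusted p = 0.00397). A second GDF15 probe set, 221576_at, was too dim to be tested and differed by 0.05.

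PLK2, a polo-like kinase that p53 induces, read 7.88 and 7.91 in siRRM1, 6.61 and 6.68 in siRRM2 and 6.00 and 5.67 in scramble. The order of the groups was that of GDF15. PLK2 was 2.37-fold higher in siRRM1 (difference 1.24, SE 0.12, limma adjusted p = 0.0437). LAMP2, a glycoprotein of the lysosomal membrane, read 7.98 and 7.81 in siRRM1 against 9.14 and 9.28 in siRRM2 and 9.29 and 9.30 in scramble. Here the siRRM1 arrays were the ones that stood apart, with a difference of -1.32 (SE 0.10, limma adjusted p = 0.0131). That value came from probe set 200821_at, while 203041_s_at and 203042_at differed by -0.03 and -0.05 (adjusted p = 0.959 and 0.945). GDF15 and RRM2 (209773_s_at) kept their calls when each of the 6 arrays was left out in turn. LAMP2 lost its call without siRRM1 replicate 2 (adjusted p = 0.0905), siRRM2 replicate 1 (0.0988) or siRRM2 replicate 2 (0.111), RRM1 without siRRM2 replicate 1 (0.244), siRRM2 replicate 2 (0.202) or either scramble array (0.0862), and PLK2 after quantile normalization (0.0552) or without siRRM1 replicate 1 (0.12) or 2 (0.344) or siRRM2 replicate 1 (0.504) or 2 (0.202).

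**Figure D1:**
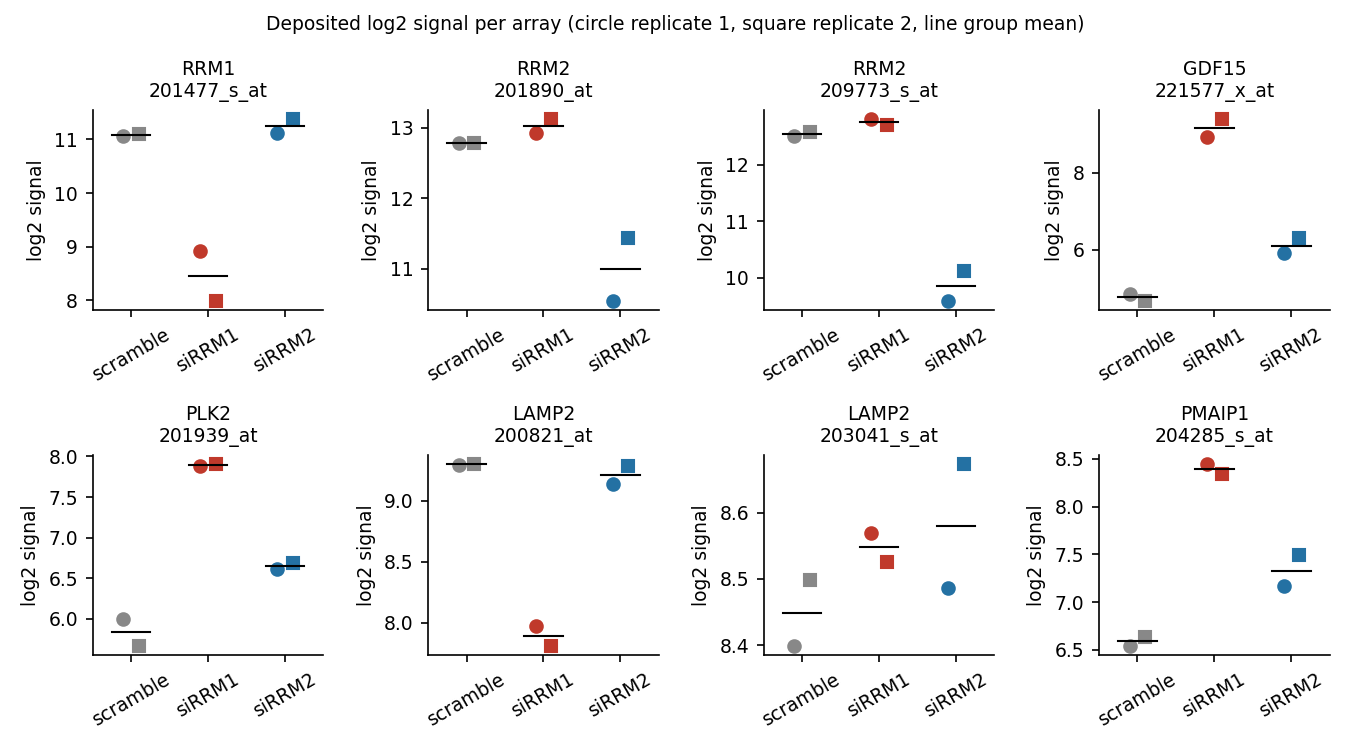
Deposited log2 signal (vertical axes, each panel with its own range) of 8 probe sets on the scramble, siRRM1 and siRRM2 arrays; circles are replicate 1, squares replicate 2 and lines the mean of the 2 arrays. GDF15 and PLK2 step up from scramble through siRRM2 to siRRM1, while LAMP2 is low in siRRM1 with 1 probe set (200821_at) and not with another (203041_s_at).

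When each gene was represented by its brightest probe set alone, which changes the fit as well as the number of tests, 13 of 7947 genes passed (0.164%), 10 higher and 3 lower in siRRM1. This set held RRM2, read by 201890_at, in addition to GDF15, PLK2, RRM1 and LAMP2. The other genes of the naming rule in it were LAPTM5, a lysosomal protein of haematopoietic cells (difference 1.66), PMAIP1, the gene of the pro-apoptotic protein NOXA (1.06), TNFSF9, a TNF family ligand (0.91), and PSRC1, a microtubule-binding protein of the mitotic spindle (-0.74). The other 4 were named after their values were seen: RPGRIP1L (1.02), GPR35 (0.96), PRSS23 (0.80) and C14orf132 (0.80). PRSS23 reached the brightness floor of 5.43 only through its siRRM1 arrays (6.20 and 6.16, against 5.42 and 5.33 in siRRM2 and 5.20 and 5.27 in scramble), so its call was set in part by the filter. With the replicate block RPGRIP1L, GPR35, PRSS23, C14orf132, LAPTM5, PMAIP1, TNFSF9 and PSRC1 all passed over all probe sets (limma adjusted p from 0.00145 to 0.0228). LAPTM5 read 8.47 and 8.90 in siRRM1, 6.78 and 7.27 in siRRM2 and 5.07 and 5.24 in scramble. Its second probe set gave 1.39 (adjusted p = 0.073 over all probe sets), close to the 0.0631 of the first.

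The promoters of GDF15 and PLK2 are shown because both genes are p53 targets called higher in siRRM1, and those of PCNA and LIG1, replication genes described further on, because they were the 2 replication genes of smallest p. Each is the window from 250 bases before to 50 after the RefSeq start in GRCh38.p14, read 5′ to 3′ on the gene's strand. Capitals mark an exact match to the p53 half-site in PLK2 and to an E2F site in PCNA and LIG1. The GDF15 window held no exact match to either. The LAMP2 window was not used here.
GDF15 promoter (chr19:18385908-18386207, plus strand): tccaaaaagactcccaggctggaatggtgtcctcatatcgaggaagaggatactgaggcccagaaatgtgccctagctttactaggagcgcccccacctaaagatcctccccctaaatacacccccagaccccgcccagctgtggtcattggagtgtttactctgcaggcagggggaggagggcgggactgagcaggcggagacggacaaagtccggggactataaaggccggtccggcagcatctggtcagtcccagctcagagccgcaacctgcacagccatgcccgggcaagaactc
PLK2 promoter (chr5:58460037-58460336, minus strand): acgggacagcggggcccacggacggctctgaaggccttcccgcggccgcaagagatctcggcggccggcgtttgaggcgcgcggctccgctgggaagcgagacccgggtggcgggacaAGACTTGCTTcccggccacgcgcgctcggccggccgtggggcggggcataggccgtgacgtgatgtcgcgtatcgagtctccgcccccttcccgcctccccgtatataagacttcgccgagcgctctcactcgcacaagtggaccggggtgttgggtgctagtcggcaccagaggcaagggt
PCNA promoter (chr20:5126573-5126872, minus strand): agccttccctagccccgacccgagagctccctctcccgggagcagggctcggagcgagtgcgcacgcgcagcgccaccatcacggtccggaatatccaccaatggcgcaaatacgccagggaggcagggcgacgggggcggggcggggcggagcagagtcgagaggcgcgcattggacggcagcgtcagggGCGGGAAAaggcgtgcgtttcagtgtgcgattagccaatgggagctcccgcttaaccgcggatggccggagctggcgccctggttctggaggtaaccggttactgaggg
LIG1 promoter (chr19:48170295-48170594, minus strand): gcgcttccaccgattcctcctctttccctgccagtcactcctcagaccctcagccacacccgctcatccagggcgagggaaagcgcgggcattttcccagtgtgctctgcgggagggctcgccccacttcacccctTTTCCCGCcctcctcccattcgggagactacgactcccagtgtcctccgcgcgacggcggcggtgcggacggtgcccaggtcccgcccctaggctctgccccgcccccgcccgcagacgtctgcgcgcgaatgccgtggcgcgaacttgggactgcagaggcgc
A p53 half-site, searched by its degenerate decamer on both strands, lay in 6.5% of the 27305 promoter windows. An E2F site, searched on both strands as TTTCCCGC, TTTCGCGC, TTTGCCGC or TTTGGCGC, lay in 3.3%. These words do not overlap the half-site in any window shown. A match is a description of the letters and not of a bound site. Sites that depart from these letters were not searched, so a window without a match may still hold a site.

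The p53 targets were read in 3 lists by role, and in each of them all tested members had a positive difference. For reference, over the 7947 genes tested the median difference was -0.01, and both siRRM1 arrays lay above both siRRM2 arrays in 18.9% of genes and below them in 21.8%. Of the arrest and feedback genes, 17 of 20 listed were measured and 15 tested. GDF15 and PLK2 rose in siRRM1 relative to siRRM2, 9 had siRRM1 arrays above both siRRM2 arrays and 0 below, and the median difference was 0.37. With the block GADD45A made it 3 called. Against scramble the median was 1.21 in siRRM1 and 0.72 in siRRM2, where over all genes it was -0.01 and -0.003. Both of these differences share the scramble arrays.

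Among the arrest genes short of the threshold was CDKN1A, the cyclin-dependent kinase inhibitor p21. It read 11.83 and 12.30 in siRRM1, 11.33 and 11.30 in siRRM2 and 9.16 and 9.30 in scramble, a difference of 0.74 (SE 0.16, limma adjusted p = 0.225). Both knockdowns were thus well above scramble, with siRRM1 the higher. GADD45A, a DNA damage response protein, differed by 0.66, and the p53-inactivating phosphatase PPM1D by 0.54 (limma adjusted p = 0.128 for each, and 0.0253 for GADD45A with the block). The brightest probe set of MDM2, the ubiquitin ligase that degrades p53, read 9.94 and 9.26 in siRRM1 and 9.40 and 9.09 in siRRM2, so that the groups overlapped (difference 0.36, adjusted p = 0.703). In the 3 other tested MDM2 probe sets both siRRM1 arrays lay above both siRRM2 arrays (differences 0.51, 0.49 and 0.35, limma adjusted p = 0.393, 0.595 and 0.559), as they did in a dim one (0.35). SFN, 14-3-3 sigma, also overlapped with its brightest probe set (7.93 and 8.46 against 8.13 and 8.07) and with another (-0.03), and a dimmer one, which reached the brightness floor only through siRRM1, differed by 0.38. TRIM22 and CDKN1C were too dim to be tested.

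Of the p53 targets of apoptosis, 12 of 13 measured genes were tested, all 12 had both siRRM1 arrays above both siRRM2 arrays, and 0 passed over all probe sets. With the block 4 passed, which were PMAIP1, TP53I3, FAS and PHLDA1. Their median difference was 0.42, with medians against scramble of 0.84 in siRRM1 and 0.37 in siRRM2. An unadjusted p under 0.05 was reached by 10 of the 12, against 725 of the 7947 genes. PMAIP1 read 8.45 and 8.34 in siRRM1, 7.17 and 7.49 in siRRM2 and 6.54 and 6.64 in scramble (difference 1.06, SE 0.13, adjusted p = 0.0631), and its other probe set differed by 1.23. TP53I3, a quinone oxidoreductase, read 8.0 and 8.21 against 6.96 and 7.23 (difference 1.01, adjusted p = 0.0931, and 0.00432 with the block). The death receptor FAS read 9.24 and 8.97 against 8.32 and 8.38, with 7.07 and 6.99 in scramble (difference 0.75, adjusted p = 0.114, and 0.0258 with the block). Smaller differences were those of the death receptor TNFRSF10B (0.51), PIDD1 (0.46, and 0.29 with overlapping groups in a second probe set), BAX, a pore-forming protein of mitochondria (0.29), and BID (0.10).

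The third list, p53 targets of metabolism and repair, had 15 tested genes, of which 13 had siRRM1 above siRRM2, 0 below and 0 past the threshold (8 at an unadjusted p under 0.05). With the block LAPTM5, DRAM1, FUCA1 and DDB2 passed. LAPTM5 had been placed in it with earlier results in view. The median difference was 0.29, and the medians against scramble were 0.62 and 0.36. DRAM1, a regulator of autophagy, read 7.59 and 7.39 in siRRM1, 6.70 and 6.78 in siRRM2 and 5.93 and 5.59 in scramble (difference 0.75, limma adjusted p = 0.167, and 0.0384 with the block). The lysosomal fucosidase FUCA1 differed by 0.78, the damage recognition proteins DDB2 and XPC by 0.63 and 0.48, the glycolysis regulator TIGAR by 0.35 and the translesion polymerase POLH by 0.33. A p53 half-site lay in 2 of 13 arrest windows, 1 of 11 apoptosis windows and 1 of 13 metabolism windows (15.4%, 9.1% and 7.7%, beside the 6.5% of all windows). An E2F site lay in 1, 1 and 3 of them (7.7%, 9.1% and 23.1%, beside the 3.3% of all windows). The medians of the 3 lists stayed positive under both other scalings and without each of the 4 knockdown arrays, between 0.22 and 0.49.

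**Figure D2:**
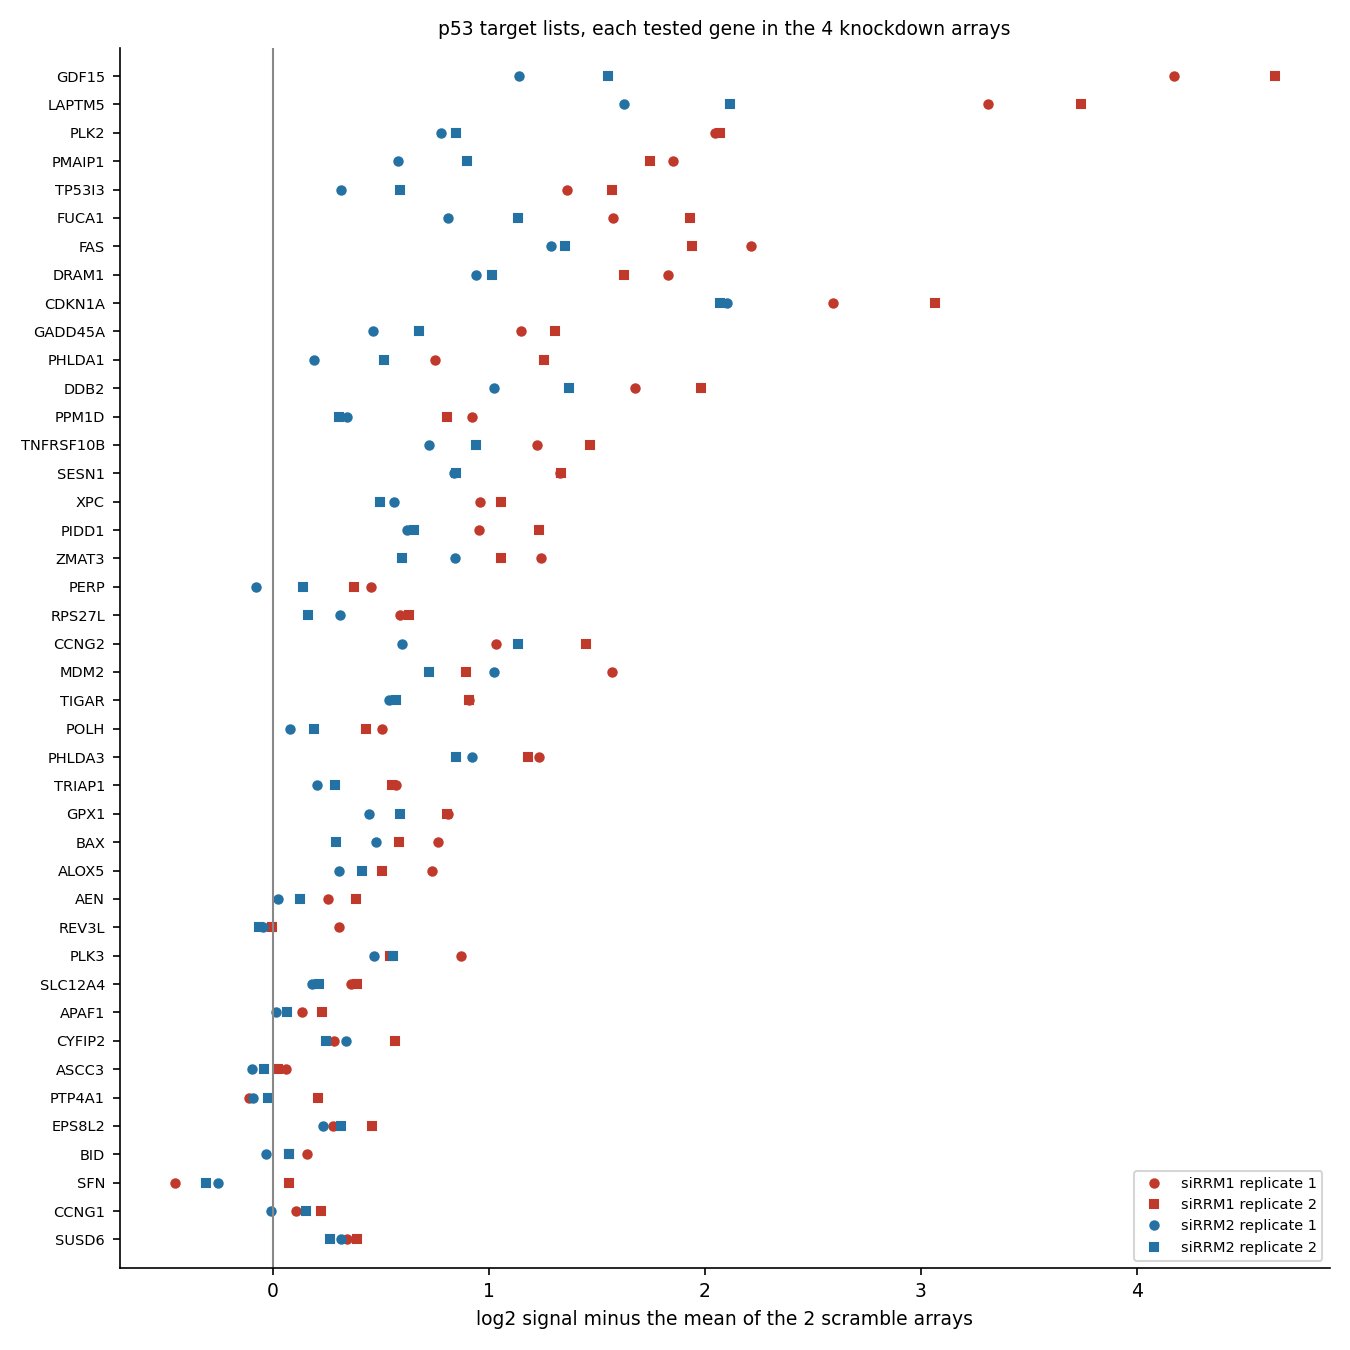
Tested genes of the 3 p53 target lists, with the log2 signal on each knockdown array minus the mean of the 2 scramble arrays on the horizontal axis; red is siRRM1, blue siRRM2, circles replicate 1 and squares replicate 2. Most genes lie right of 0 in both knockdowns with the red points farther right, GDF15 and LAPTM5 by the most. LAPTM5 had been placed in its list with earlier results in view. MDM2 (by the brightest of its probe sets), SFN and CCNG2 have red and blue points that overlap.

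DNA replication genes had small positive differences. Of 44 measured genes, 43 were tested and 40 were positive. In 35 siRRM1 lay above siRRM2 and in 0 below (18.9% and 21.8% over all genes), and 0 passed. The list's median difference was 0.24, and 13 members had an unadjusted p under 0.05. Against scramble the median was 0.24 in siRRM1 and 0.06 in siRRM2. The list's median ranged from 0.15 to 0.33 without each knockdown array, and was 0.20 and 0.23 for siRRM1 replicates 1 and 2 taken singly.

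PCNA, the sliding clamp of the polymerases, read 11.86 and 11.97 in siRRM1, 11.51 and 11.55 in siRRM2 and 11.23 and 11.15 in scramble. Its difference of 0.39 (SE 0.09) missed the threshold (limma adjusted p = 0.272). LIG1, the ligase that joins Okazaki fragments, read 8.27 and 8.54 in siRRM1, 7.82 and 7.999 in siRRM2 and 7.79 and 7.79 in scramble (difference 0.49, SE 0.12, adjusted p = 0.286). For both genes the 2 groups stood apart on every array. Subunits of the MCM helicase that opens the DNA differed by 0.35 (MCM5), 0.32 (MCM3), 0.31 (MCM2), 0.22 (MCM6), 0.16 (MCM7) and 0.13 (MCM4). The MCM4 groups overlapped in this probe set and in another (0.08), and stood apart in 2 others (0.12 and 0.16). Of the primase subunits that start each strand, PRIM2 differed by 0.40 and PRIM1 by 0.34, and the origin recognition subunit ORC1 by 0.38. The 3 negative members were RFC5 (-0.09, and 0.08 in a second probe set), RPA2 (-0.03) and DBF4 (-0.02). An E2F site lay in 44.4% of the 36 replication promoter windows found, as in those of PCNA and LIG1 above, and a p53 half-site in 3 (8.3%).

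**Figure D3:**
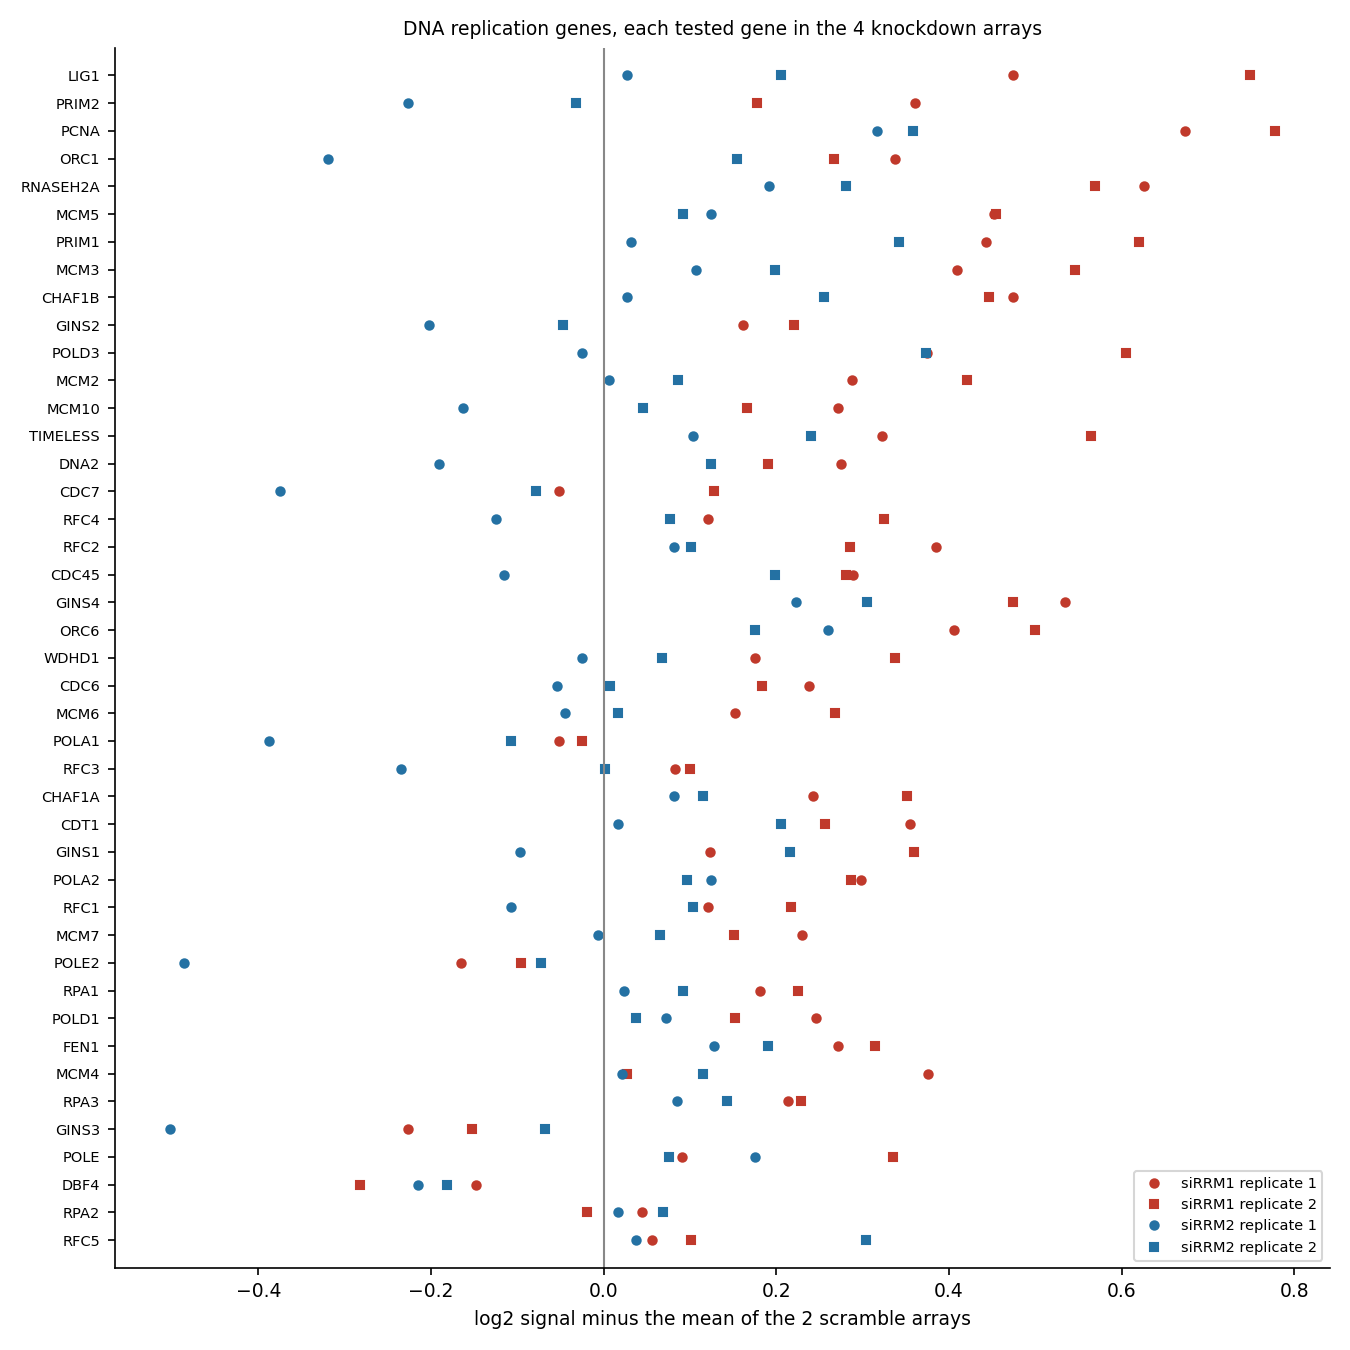
DNA replication genes tested, with the log2 signal on each knockdown array minus the mean of the 2 scramble arrays on the horizontal axis; red is siRRM1, blue siRRM2, circles replicate 1 and squares replicate 2. The red points of 35 of the 43 genes lie right of both blue points, with LIG1 at the top and RFC5, RPA2 and DBF4 among the genes at the bottom whose points overlap.

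Regulators of entry into S phase, with an E2F site in 33.3% of 18 windows, had a smaller median. Of 23 G1/S genes, 11 had siRRM1 above siRRM2 and 1 below (18.9% and 21.8% over all genes). The threshold was passed by 0, and 2 had an unadjusted p under 0.05 (median 0.10). The cyclin CCNE2 read 9.89 and 10.12 in siRRM1, 9.32 and 9.55 in siRRM2 and 8.92 and 8.91 in scramble (difference 0.57, limma adjusted p = 0.225), and its second probe set gave 0.32. Its kinase partner CDK2 differed by 0.31 (adjusted p = 0.511), with a second probe set at 0.12 whose groups overlapped, whereas E2F1 (0.04) and CDK4 (0.02) were nearly level.

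Genes of mitosis had a median near 0. Of 40 G2/M genes, 0 had siRRM1 above siRRM2 and 5 had it below (18.9% and 21.8% over all genes). The threshold was passed by 0, and 3 had an unadjusted p under 0.05. The list's median was -0.03, and its sign depended on the array: it was -0.19 without siRRM2 replicate 1 and 0.09 without siRRM2 replicate 2. PSRC1 read 5.37 and 5.34 in siRRM1, 6.08 and 6.10 in siRRM2 and 6.50 and 6.57 in scramble (difference -0.74, SE 0.09, limma adjusted p = 0.0631, and 0.0143 with the block). CDC20, which activates the anaphase-promoting complex, differed by -0.33 (adjusted p = 0.464) and the checkpoint kinase BUB1 by -0.30, with 2 other probe sets at -0.29 and 0.09 that overlapped. The proliferation marker MKI67 read 9.69 and 9.64 in siRRM1 and 9.67 and 9.71 in siRRM2 (difference -0.02, adjusted p = 0.965). An E2F site lay in 8.8% of the 34 mitosis windows.

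Of 29 checkpoint and repair genes tested, 13 lay above and 4 below, beside 18.9% above and 21.8% below over all genes. Of the 29, 0 passed the threshold, 5 had an unadjusted p under 0.05 and the median was 0.10. BRCA1, of homologous recombination, differed by 0.36 (adjusted p = 0.492), EXO1, a DNA exonuclease, by 0.30 and the Fanconi anaemia protein FANCI by 0.33. HUS1, of the checkpoint clamp, differed by -0.30 (adjusted p = 0.459) and MDC1, a damage adaptor, by -0.25. A second tested probe set of each overlapped between the groups (-0.03 for both). Of 13 histone genes, 2 were above, 2 below and 0 passed (1 at an unadjusted p under 0.05, median -0.04), and the linker histone H1-10 (-0.51) and the core histone H2AC17 (0.31) had the smallest p. H2AC17 and another histone gene, H4C8 (difference 0.33), reached the brightness floor only through their siRRM1 arrays. Histone genes have near-identical copies that a probe set may not separate.

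Enzymes of deoxyribonucleotide supply other than the targets showed no common direction. Of 27 tested, with the targets included, RRM1 was the 1 called. Above lay 7 and below 5 (18.9% and 21.8% over all genes), and the list's median was 0.03. TK2, the mitochondrial thymidine kinase, read 8.19 and 8.67 in siRRM1 and 7.68 and 7.93 in siRRM2 (difference 0.63, limma adjusted p = 0.355, and 0.0474 with the block). The cytosolic kinase TK1 differed by 0.24, thymidylate synthase TYMS by 0.13, the deoxynucleotide hydrolase SAMHD1 by 0.07 and deoxycytidine kinase DCK by 0.06.

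**Figure D4:**
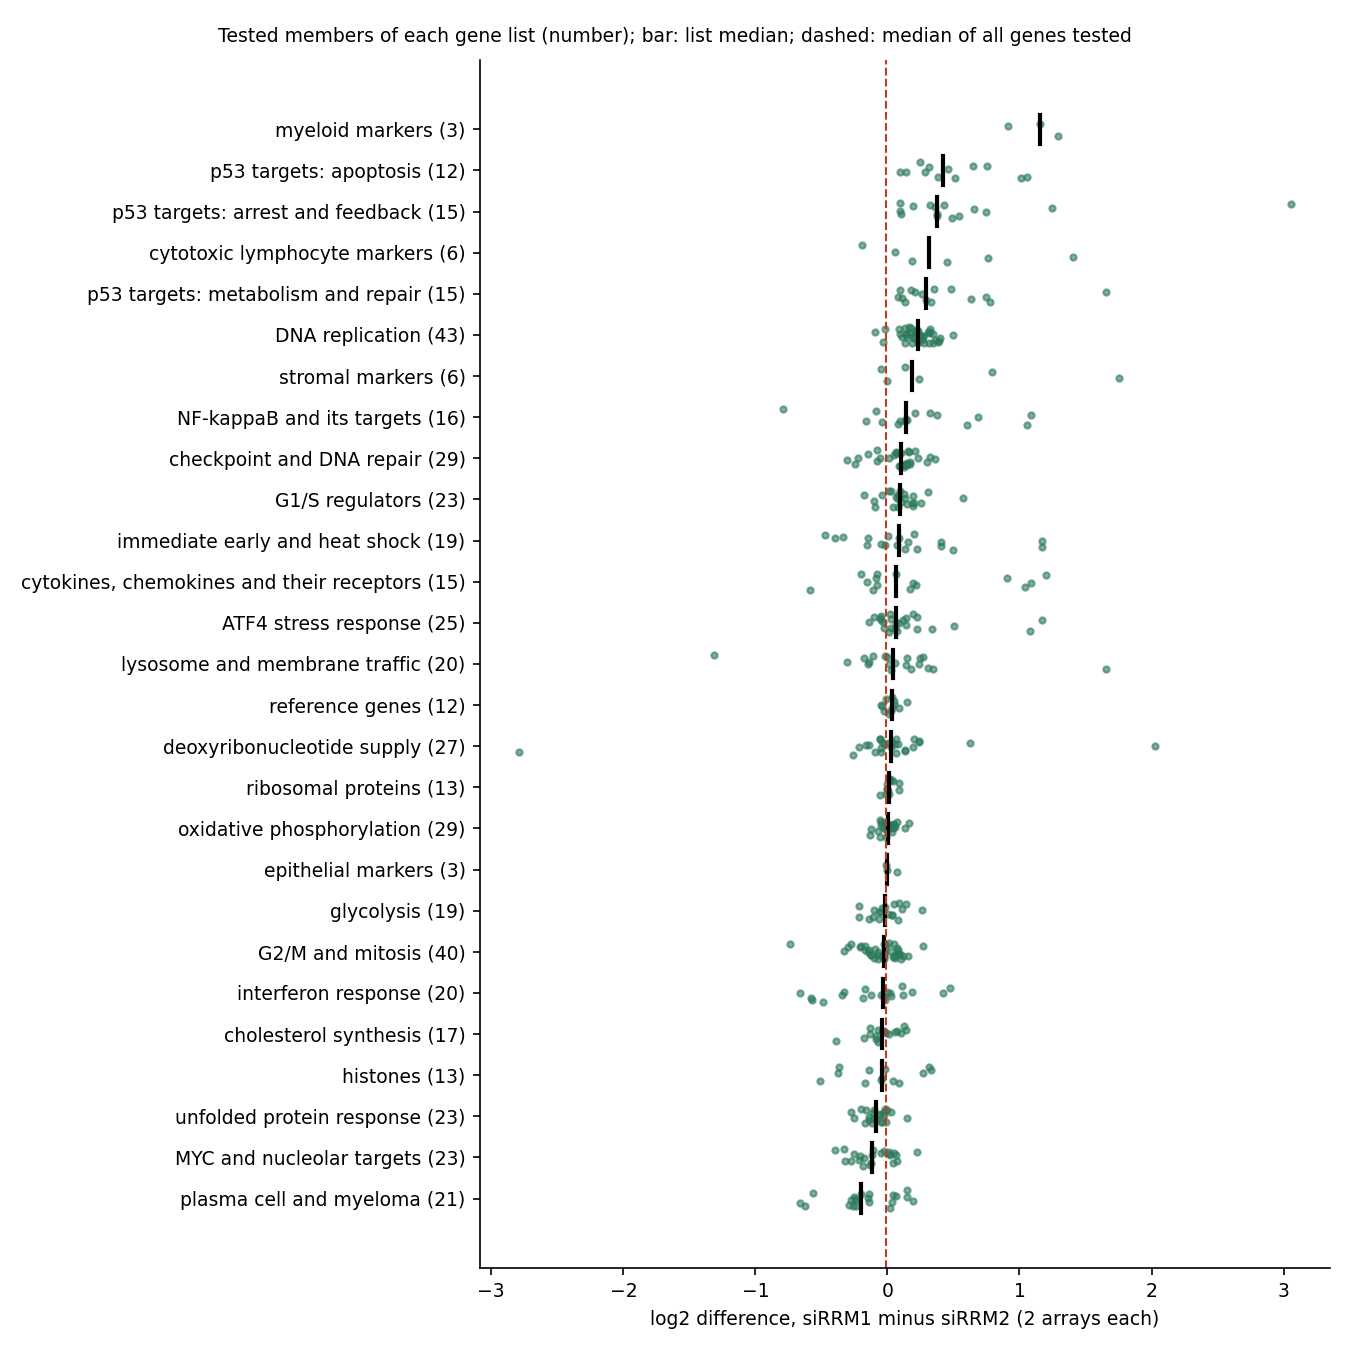
Difference in log2 signal, siRRM1 minus siRRM2 (horizontal axis), of each tested member of 27 gene lists; points are genes, black bars list medians, the dashed line the median of all genes tested and the number in brackets the genes tested. Myeloid markers (3 genes tested) lie farthest right, with a median of 1.16. The p53 lists (medians of 0.29 to 0.42) and cytotoxic markers (0.32, 6 genes tested) also lie to the right. Plasma cell genes lie to the left at -0.20, while ribosomal, oxidative phosphorylation and reference genes sit near 0.

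Plasma cell and myeloma genes were the list with the lowest median, -0.20. Of 21 tested, 14 had siRRM1 below siRRM2 and 2 above (21.8% and 18.9% over all genes). The threshold was passed by 0, and 6 had an unadjusted p under 0.05. With the block CD38, FGFR3 and IRF4 passed, all lower in siRRM1. Against scramble the median was -0.18 in siRRM1 and 0.03 in siRRM2. CD38, a surface ectoenzyme of plasma cells, read 9.12 and 8.92 in siRRM1, 9.61 and 9.69 in siRRM2 and 9.32 and 9.39 in scramble, so that the knockdowns lay on opposite sides of the control (difference -0.63, SE 0.10, limma adjusted p = 0.127, and 0.0474 with the block). FGFR3, the receptor kinase deregulated in myelomas with an FGFR3 translocation, read 8.89 and 8.89 against 9.63 and 9.47 (difference -0.66, adjusted p = 0.127, and 0.0474 with the block), with 9.32 and 9.53 in scramble. IRF4, a transcription factor on which myeloma cells depend, differed by -0.57 (adjusted p = 0.428, and 0.0405 with the block), the B cell coactivator POU2AF1 by -0.26, PRDM1, which drives plasma cell differentiation, by -0.24 and the syndecan SDC1 by -0.29. The list's median stayed negative without each knockdown array, between -0.24 and -0.14.

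Of 20 interferon response genes tested, 7 lay below, 3 above and 0 passed (6 at an unadjusted p under 0.05, median -0.04). Over all genes 21.8% lay below and 18.9% above. IRF7, a transcription factor of the type I interferon response, read 6.89 and 6.91 in siRRM1, 7.50 and 7.46 in siRRM2 and 6.71 and 6.78 in scramble (difference -0.58, SE 0.09, limma adjusted p = 0.114, and 0.0392 with the block). ISG20, an RNA exonuclease, read 9.62 and 9.44 in siRRM1, 10.13 and 10.26 in siRRM2 and 9.90 and 10.07 in scramble (difference -0.66, adjusted p = 0.128). IRF7 was thus close to scramble in siRRM1 and above it in siRRM2, and ISG20 lay on opposite sides of it. IFI27 differed by -0.57 (adjusted p = 0.188, and 0.0474 with the block) and the antiviral GTPase MX1 by -0.33, whereas OASL (0.42) and SP110 (0.48, though -0.01 in a second probe set) had differences above 0 that did not pass.

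**Figure D5:**
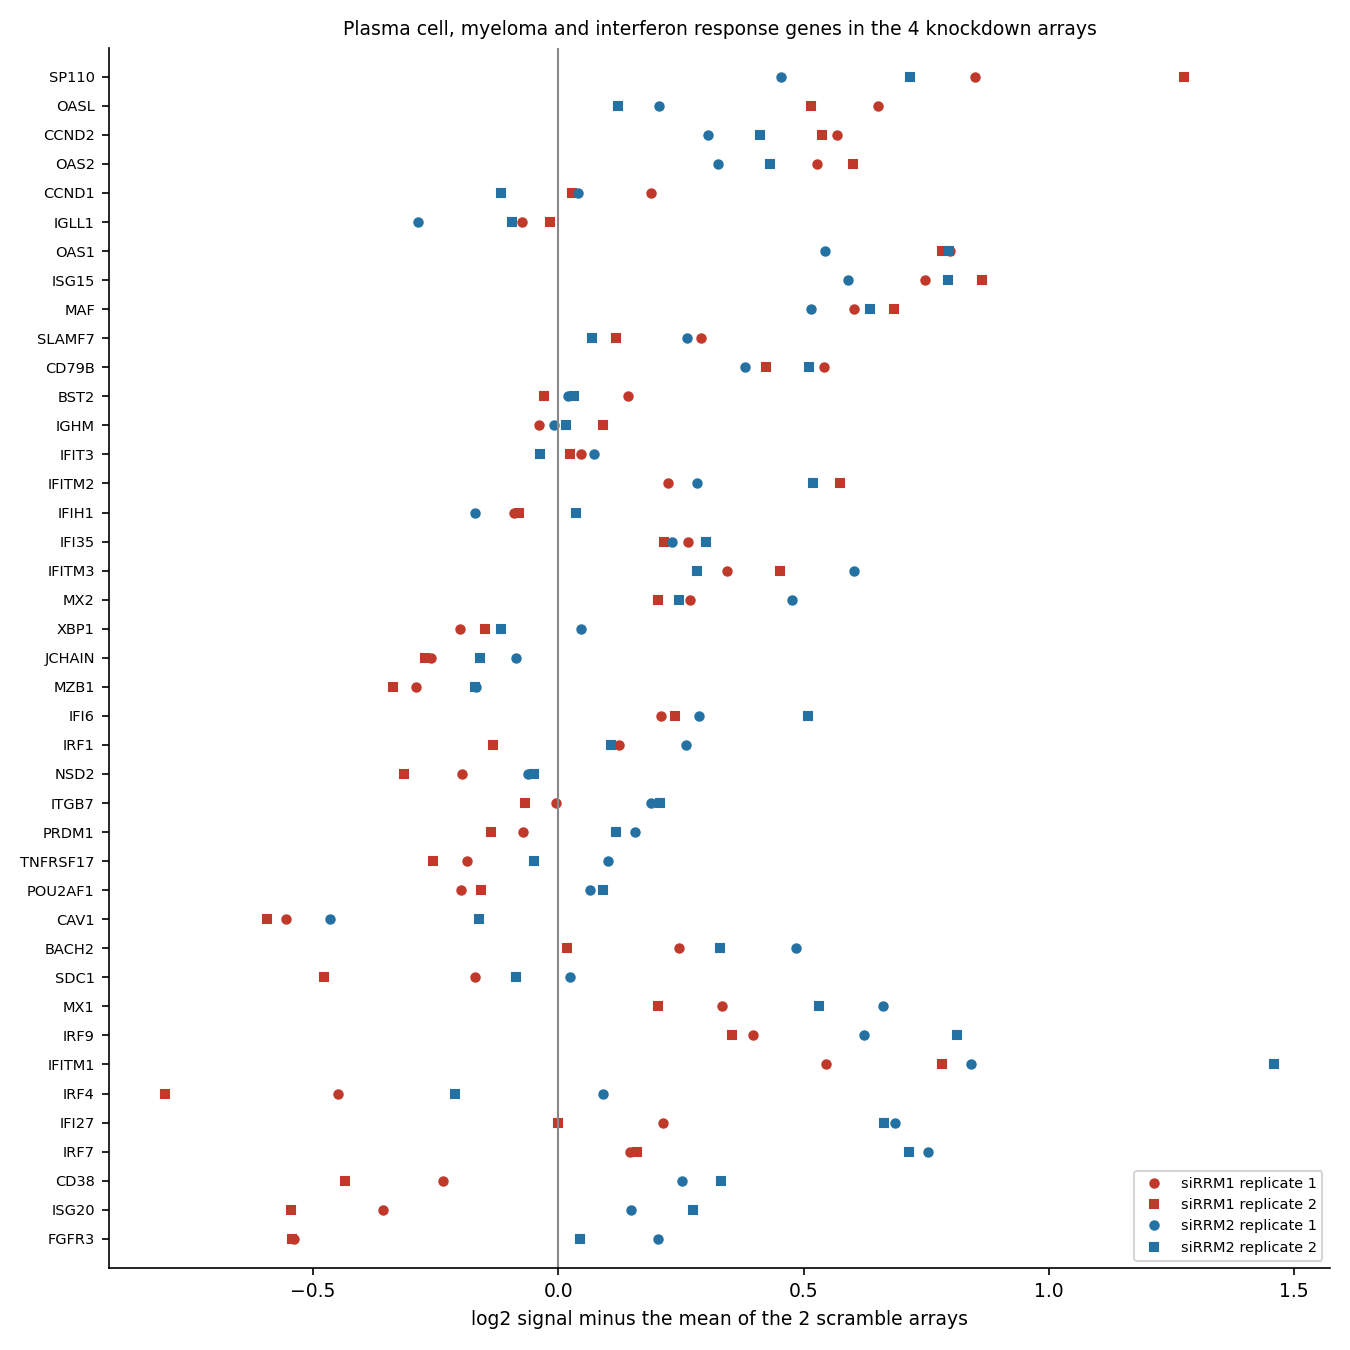
Plasma cell, myeloma and interferon response genes, with the log2 signal on each knockdown array minus the mean of the 2 scramble arrays on the horizontal axis; red is siRRM1, blue siRRM2, circles replicate 1 and squares replicate 2. CD38 and ISG20 have red points left of 0 and blue points right of it, and for IRF7 the blue points lie farther right than the red.

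Inflammatory genes included some of the larger differences short of the threshold. Of 16 NF-kappaB genes, 7 lay above and 1 below (18.9% and 21.8% over all genes). Of these 16, 0 passed and 7 had an unadjusted p under 0.05 (median 0.14). With the block REL, IER3 and CCL4 passed. TNFAIP3, a feedback inhibitor of the pathway, read 8.13 and 8.45 in siRRM1, 7.49 and 7.73 in siRRM2 and 6.79 and 6.70 in scramble (difference 0.68, limma adjusted p = 0.212). REL, a subunit of the factor, read 5.99 and 5.75 in siRRM1, 6.70 and 6.62 in siRRM2 and 6.97 and 6.76 in scramble (difference -0.79, adjusted p = 0.114, and 0.0118 with the block), but its other probe set, which was dim, differed by -0.01. Of 15 cytokines and receptors, 4 lay above, 1 below and 0 passed (5 at an unadjusted p under 0.05), and the median of 0.07 turned to -0.03 without siRRM1 replicate 2. With the block TNFSF9, IL17A, IL10 and CCL4 passed. TNFSF9 read 7.77 and 7.88 against 6.80 and 7.04, with 5.10 and 5.19 in scramble (difference 0.91, adjusted p = 0.073, and 0.00708 with the block). The interleukin IL17A differed by 1.20 (adjusted p = 0.212, and 0.00672 with the block), but it reached the brightness floor only through its siRRM1 arrays, and its dim second probe set differed by 0.10. CCL4, a chemokine, differed by 1.09 and IL10 by 1.04.

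Stress lists had medians near 0. Of 25 ATF4 response genes, 7 lay above and 2 below (18.9% and 21.8% over all genes). The list had 0 past the threshold and 3 at an unadjusted p under 0.05 (median 0.06). ATF3, a stress-induced transcription factor, read 8.50 and 8.98 in siRRM1, 7.28 and 7.85 in siRRM2 and 6.34 and 6.94 in scramble (difference 1.17, limma adjusted p = 0.243, and 0.00308 with the block). DDIT3, which encodes CHOP, read 8.08 and 8.69 in siRRM1, 7.15 and 7.46 in siRRM2 and 6.90 and 7.17 in scramble (difference 1.08, adjusted p = 0.203, and 0.00681 with the block). ATF4 itself differed by -0.05. Of 19 immediate early and heat shock genes, 5 lay above, 2 below and 0 passed (3 at an unadjusted p under 0.05). The median of 0.09 was -0.09 without siRRM1 replicate 2 and -0.10 without siRRM2 replicate 1. IER5 differed by 0.49 (adjusted p = 0.149). EGR1 read 8.65 and 9.71 against 7.30 and 8.71, and in both groups replicate 2 was the higher (difference 1.17, limma adjusted p = 0.651, and 0.00626 with the block).

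Chaperone and growth genes had negative medians. Of 23 genes of the unfolded protein response, 10 lay below and 1 above (21.8% and 18.9% over all genes). The threshold was passed by 0, and 2 had an unadjusted p under 0.05 (median -0.09). HYOU1, a chaperone of the endoplasmic reticulum, differed by -0.25 (adjusted p = 0.519), DNAJB9, an HSP40 cochaperone, by -0.27 and HSPA5, the chaperone BiP, by -0.17. Of 23 MYC and nucleolar genes, 13 lay below, 1 above and 0 passed (3 at an unadjusted p under 0.05, median -0.12). MYC read 8.96 and 8.47 in siRRM1, 9.23 and 8.99 in siRRM2 and 8.89 and 8.82 in scramble (difference -0.39, limma adjusted p = 0.578). WDR74 and NOP16, both ribosome assembly factors, differed by -0.33 and -0.32, and the other tested probe sets of NOP16 ranged from -0.33 to 0.09. Both medians stayed negative without each knockdown array and under both other scalings.

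Of 20 lysosomal genes tested, LAMP2 was the 1 called, and 9 lay above and 3 below (18.9% and 21.8% over all genes). The median was 0.04, and 6 had an unadjusted p under 0.05 (4 higher and 2 lower). LAPTM5, described above, had the largest difference of the list at 1.66. The protease CTSL differed by 0.31, TFEB, a transcription factor of lysosomal genes, by 0.35 (0.03 in a second probe set), the channel MCOLN1 by -0.31 and LAMP1, the other major membrane glycoprotein, by 0.06 (-0.07 and -0.06 in 2 others). In metabolism, 2 of 17 cholesterol genes lay above and 6 below (median -0.04), with MSMO1 at -0.39 and MVD at -0.18. Glycolysis had 5 above and 4 below of 19 (median -0.02, HK2 -0.21 with its brightest probe set and 0.20 with a second, and PFKFB3 0.26). Oxidative phosphorylation had 6 above and 3 below of 29 (median 0.003, NDUFS1 0.17 and NDUFB8 0.14, with other NDUFB8 probe sets at 0.04 and 0.05). Ribosomal proteins had 3 above and 1 below of 13 (median 0.01, RPL14 and RPS3 both 0.08, and a second RPL14 probe set 0.41) and reference genes 1 and 0 of 12 (median 0.03, HPRT1 0.08 and GUSB 0.14). In these metabolic, ribosomal and reference lists limma called 0 genes, and at an unadjusted p under 0.05 there was 1, the cholesterol gene MSMO1.

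Markers of cell types other than plasma cells were read as a check, and several genes of leukocytes and stroma had higher signals in siRRM1. Of 16 cytotoxic lymphocyte markers measured, 6 were bright enough to test, NKG7 (difference 0.06) only with its siRRM1 arrays counted. Above lay 3 and below 0 (18.9% and 21.8% over all genes), with a median of 0.32. The granule protease GZMB read 9.56 and 10.90 in siRRM1, 8.15 and 9.49 in siRRM2 and 5.56 and 5.89 in scramble (difference 1.41, SE 0.51, limma adjusted p = 0.514, and 0.0412 with the block). In all 3 groups replicate 2 was the higher. GNLY, a granule protein, differed by 0.76 (adjusted p = 0.252) and TRBC1, a T cell receptor constant region, by 0.45. The defining T cell genes CD2, CD3D, CD3G, CD8A and LCK were below the brightness filter, and CD3E differed by -0.19. The summed signal of the 16 was 1582 to 1591 in scramble, 2756 to 2978 in siRRM2 and 3925 to 5003 in siRRM1.

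Of 11 myeloid markers, 3 were tested, 2 lay above and 0 below (18.9% and 21.8% over all genes). The calcium-binding protein S100A9 read 7.94 and 9.03 in siRRM1, 6.74 and 7.91 in siRRM2 and 5.90 and 5.98 in scramble (difference 1.16, limma adjusted p = 0.519). CSF1R, the receptor of macrophage colony-stimulating factor, differed by 0.92 (adjusted p = 0.454, and 0.0474 with the block). The list's median of 1.16 was 0.50 for siRRM1 replicate 1 and 1.71 for replicate 2, and its summed signal was 281 to 291 in scramble, 420 to 786 in siRRM2 and 743 to 1597 in siRRM1. CD14, LYZ, MPO, ITGAM and FCN1 were below the filter. Of 10 stromal markers, 6 were tested, 4 lay above and 0 below (median 0.19), and 2 had negative differences, the lowest -0.05. The list was led by the matrix glycoprotein TNC (1.76, limma adjusted p = 0.273, and 0.00432 with the block) and the actin ACTA2 (0.79, adjusted p = 0.1, and 0.0155 with the block). Dim second probe sets of TNC and ACTA2 gave -0.19 and -0.12. The list's sums were 9675 to 9874, 10201 to 10259 and 10146 to 10485 in the same order, and COL1A2, COL3A1 and PDGFRB were below the filter.

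Of 8 epithelial markers, 3 were tested and 0 lay above or below (MUC1 0.07, KRT18 -0.01). Their summed signal was 553 to 572 in scramble, 550 to 562 in siRRM2 and 552 to 557 in siRRM1. The plasma cell list summed to 54582 to 58643, 56033 to 58750 and 48943 to 50589. In these 4 lists of other cell types limma called 0 genes, while 3 cytotoxic, 2 myeloid, 3 stromal and 0 epithelial markers had an unadjusted p under 0.05. The part of these markers in the differences above was not tested.

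The arrays of the 2 knockdowns lay on opposite sides of both scramble arrays in a small share of genes. In 78 of 7947 genes both siRRM2 arrays lay above and both siRRM1 arrays below both scramble arrays (0.982%), and in 36 the reverse held (0.453%). These counts describe the arrays and were not tested. A random order of the arrays can also give shares of this size, so the order alone does not set a gene apart. RRM1 (201477_s_at) is in the first group and RRM2 (201890_at) in the second. Under the siRNA against its partner, each read higher than scramble by a mean of 0.16 for RRM1 and 0.24 for RRM2. For RRM1 the lower siRRM2 array (11.115) was barely above the higher scramble array (11.105). The other RRM1 probe set overlapped scramble (9.14 and 9.31 in siRRM2, 8.95 and 9.20 in scramble). The other RRM2 probe set was also above scramble in siRRM1, by 0.21. Beside CD38, ISG20, POU2AF1, PRDM1 and MCOLN1, the first group held FAM117A (7.44 and 7.47 in siRRM1, 8.26 and 8.08 in siRRM2, 7.97 and 7.75 in scramble) and ATP6V1A, a subunit of the lysosomal proton pump (10.24 and 10.24, 10.72 and 10.68, 10.50 and 10.52). Both were named after their values were seen, and neither difference, -0.72 and -0.46, passed (limma adjusted p = 0.118 and 0.191, with the block 0.0253 for FAM117A). A second ATP6V1A probe set had siRRM2 (8.22 and 8.18) within the scramble range (8.39 and 8.17). The second group held CTSL and NDUFB8 (201227_s_at). The other tested NDUFB8 probe sets, at 0.04 and 0.05, overlapped between the knockdowns.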

How the data were processed

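Total RNA of 6 NCI-H929 samples was hybridized as biotinylated cRNA to Affymetrix arrays, per the labels' protocols. The authors deposited log2 signals, 1 per probe set and array. The sources used here do not give how they were summarized and normalized. No further scaling was applied. Groups came from the sample titles. Gene symbols came from the platform's annotation: of 22277, 19070 had 1 gene symbol, 1043 several and 2164 none listed, and none was named from several.

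After leaving out 62 control probe sets, those whose mean over the 6 arrays reached the 40th percentile (log2 5.43) were tested, 13329 in all. Limma 3.58.1 under R 4.3.3 (functions lmFit and eBayes, two-sided, Benjamini-Hochberg threshold 0.05) was fitted to the 6 arrays. Within this fit, the scramble arrays entered only the shared spread (3 residual and 4.29 prior degrees of freedom). They also entered the brightness filter and the choice of each gene's brightest probe set. The fit on the 4 knockdown arrays stands beside the main fit. The labels do not say that a replicate number marks a shared culture or day. Deviations from the group means of same-numbered arrays correlated at 0.21 (siRRM1 with siRRM2), 0.352 and 0.361 (scramble with each) over probe sets, so the p with the number as a block is given where it changes a call. With 2 arrays a group, the number of arrays limits the precision. Fits were tested on simulated data. For the lists, a gene was read by its brightest probe set with 1 symbol (11963 genes, 7947 tested). List sums are of unlogged signals over all measured members.

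The comparison, the 27 lists and the genes fixed by name were chosen with earlier results of these data known. The naming rule takes the targets, the 15 largest called differences each way, up to 4 called members of a list each way or else its 2 of smallest p, and CDKN1A, MDM2, GDF15, FAS, GZMB, MYC, MKI67, PCNA and CCNE2. Other list members are named for their role. Promoters came from the RefSeq table of GRCh38.p14, matched by symbol. Alternatives covered the arrays, filter, probe sets per gene, scaling, variance model, replicate block and each array left out.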

Additional observations from a re-analysis of the deposited data

Results flagged for a closer look

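The knockdowns differed past the threshold, by the test of the difference itself, in GDF15 (3.06), PLK2 (1.24), LAMP2 (-1.32, with 1 of its 3 probe sets), RRM1 (-2.79) and RRM2 (2.91, probe set 209773_s_at), all as siRRM1 minus siRRM2 in log2 signal.

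In 11 probe sets of 10 genes named here, every siRRM1 array lay on one side of both scramble arrays and every siRRM2 array on the other, and the direct difference missed the threshold. SiRRM1 was the lower in FAM117A (-0.72), ISG20 (-0.66 and -0.61 in 2 probe sets), CD38 (-0.63), ATP6V1A (-0.46), MCOLN1 (-0.31), POU2AF1 (-0.26) and PRDM1 (-0.24), and the higher in RRM2 read by 201890_at (2.03), CTSL (0.31) and NDUFB8 (0.14). The other tested probe sets of NDUFB8 (0.04 and 0.05) and of ATP6V1A (-0.74) did not hold this order. That these genes moved in opposite directions from scramble was not tested. Of the 7947 genes, siRRM1 was the lower in such an order in 0.982% and the higher in 0.453%. A random order of the arrays can also give shares of this size. The order alone therefore does not set these genes apart.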

How the results depend on the processing

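The count of 5 called probe sets (3 higher, 2 lower, 5 at 2-fold or more) took other values under some alternatives. It was 13 with 1 probe set per gene (10 higher, 8 at 2-fold), 16 with an intensity trend (11 higher, 5 lower, 12 at 2-fold) and 101 with the replicate number as a block (77 higher, 24 lower, 32 at 2-fold, and 1658 at an unadjusted p under 0.05). With the 4 knockdown arrays alone, 1 was lower. Without each array in turn, 2 to 5 were called, 2 to 3 higher, 0 to 3 lower and 2 to 5 at 2-fold. The RRM1 difference was -2.79 and missed the threshold with the 4 knockdown arrays, and ranged from -3.26 to -2.32 without each array. RRM2 (201890_at, 2.03) passed with 1 probe set per gene (limma adjusted p = 0.0389), the trend (0.0199) and the replicate block (0.00506), and ranged from 1.58 to 2.48 without each array. With the block, the named genes whose call changed are given as such in the report, and it ended none of the 5 calls. Signs turned in 4 uncalled genes near 0: GUSB (-0.035 to 0.324 without each array), KRT18 (0.006 with quantile normalization and -0.056 to 0.041 without each array), MKI67 (-0.049 to 0.000) and MUC1 (-0.060 to 0.209 without each array). Of 57 other named genes, 33 kept direction and side of the threshold under all 14 alternatives. The list medians under other scalings and without each knockdown array were added after seeing the data. Probe sets dimmer than log2 5.43 were not tested in the main setting, and without that filter 7 passed, the 5 among them. The causes of these moves were not tested.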
